A study of Mus musculus with 16 samples.

Results

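A set of 10 genes that mark adipose progenitors and fibroblasts was followed in brown adipose tissue (BAT) of mice with and without Gdf15 in their thermogenic adipocytes. They are Pdgfra, Pdgfrb, Pi16, Dpp4, Cd34, Cd248, Ly6a, Meox1, Islr and Prnd, 10 of the 49066 gene symbols in the transcript-level table. They were chosen by name, with their levels in these 16 libraries by genotype and sex already known, so their differences are given as a description and without a test of their own. All mice were on the C57BL6/J background, carried floxed Gdf15 on both alleles (Gdf15 fl/fl), were 18 weeks old and had been fed a high-fat diet (HFD, 60% of energy from fat) for 12 weeks from 6 weeks of age. WT littermates had no Cre, and knockout (KO) mice also carried the transgene Tg(Ucp1-cre)1Evdr. Males and females of both genotypes made 4 groups, each with 4 libraries of polyA RNA. Because Cre was driven by the Ucp1 promoter, deletion was directed to Ucp1-expressing adipocytes, and not to the stromal cells that carry these markers. No group had Cre without floxed alleles.

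White and brown fat depots hold a stromal compartment beside the adipocytes. Progenitors in this compartment sit around vessels and in the connective tissue between lobules, and can become adipocytes or matrix-producing fibroblasts. Pdgfra, Cd34 and Ly6a are the surface markers usually used to sort them, Dpp4 and Pi16 mark an early interstitial population, and Pdgfrb is shared with the pericytes that wrap capillaries. Cd34 and Ly6a are also found on endothelial cells, so a bulk level of any of these genes is a sum over several cell types, and more cells of a type cannot be told apart from more RNA per cell.

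Levels are TPM, the length-corrected share of a library's transcripts that a gene takes. Gdf15, the targeted stress hormone of the TGF-beta superfamily, was read first as a check of the labels. It lay at 0.368, 0.690, 1.55 and 3.81 TPM in male WT mice and at 0.0915, 0.0801, 0.255 and 0.272 TPM in male KO mice. These groups did not overlap, and the difference on the log2(TPM + 0.5) scale was -1.38 (exact two-sided permutation p = 0.0286, the smallest that 4 mice against 4 allow). In females Gdf15 was low in both genotypes, at 0.0622, 0.311, 0.170 and 0.290 TPM in WT mice, while 3 KO libraries were listed at 0 and the other at 0.0794 TPM (log2 difference -0.43, exact permutation p = 0.0571). The labelled tissue carried its markers, with all 11 listed brown adipocyte genes above the minimum and a summed level of 7164 to 14109 TPM per library. Mitochondrial transcripts took 34.5 to 59.8% of the TPM, and female WT mouse 4 stood apart because 17.7% of its TPM fell on transcript identifiers without a gene match, against 0.333 to 0.480% in the others.

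Promoter sequence is shown for Pi16, Prnd, Cd34 and Islr. These are the markers that separated male KO from male WT mice and had an entry used from the RefSeq promoter table (build GRCm38.p6). Entries for 6 of the 10 markers were used. Cd248, Ly6a, Meox1 and Pdgfrb had no sequence used here. Each line gives the 250 bases before the annotated start, 5′ to 3′ on the gene's strand, at chr17:29318632-29318881 (plus strand) for Pi16, chr2:131950611-131950860 (plus) for Prnd, chr1:194938571-194938820 (plus) for Cd34 and chr9:58158555-58158804 (minus) for Islr. Capitals mark a match to 1 of 5 motifs, searched on both strands.
Pi16: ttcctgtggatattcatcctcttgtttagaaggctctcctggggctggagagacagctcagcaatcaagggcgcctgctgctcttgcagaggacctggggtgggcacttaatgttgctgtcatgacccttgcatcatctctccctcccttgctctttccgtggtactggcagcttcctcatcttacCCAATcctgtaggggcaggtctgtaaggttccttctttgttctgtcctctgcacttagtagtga
Prnd: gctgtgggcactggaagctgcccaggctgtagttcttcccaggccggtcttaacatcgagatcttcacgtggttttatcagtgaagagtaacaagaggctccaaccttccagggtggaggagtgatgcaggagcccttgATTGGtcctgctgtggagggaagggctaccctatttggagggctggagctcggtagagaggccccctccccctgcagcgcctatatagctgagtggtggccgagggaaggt
Cd34: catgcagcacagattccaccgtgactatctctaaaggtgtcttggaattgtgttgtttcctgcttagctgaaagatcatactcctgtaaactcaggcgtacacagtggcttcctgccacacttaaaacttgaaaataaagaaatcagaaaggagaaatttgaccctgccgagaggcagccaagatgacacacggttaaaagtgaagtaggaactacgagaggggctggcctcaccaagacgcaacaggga
Islr: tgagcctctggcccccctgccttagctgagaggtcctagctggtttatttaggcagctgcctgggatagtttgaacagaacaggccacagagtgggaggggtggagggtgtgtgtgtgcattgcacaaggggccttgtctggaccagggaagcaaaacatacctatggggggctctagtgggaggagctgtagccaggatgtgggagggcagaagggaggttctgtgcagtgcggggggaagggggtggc

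Pi16 and Prnd each held 1 CCAAT box (letters CCAAT), whose first base lay 64 and 111 bases before the start. A CCAAT box was present in 33.8% of the 32851 windows of this length in the table. None of the 4 windows held a TATA box (TATAAA, 12.4% of windows), a GC box (GGGCGG, 32.7%), an AP-1 site (TGANTCA, 6.75%) or a TEAD site (GGAATG, 12.6%). In the windows of Pdgfra and Dpp4, not printed, Pdgfra had no match and Dpp4 had a TATA box and a TEAD site. A second Prnd start in the table had a TEAD site.

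The levels of the markers spanned a wide range. Averaged over the 16 libraries, Ly6a was at 90.3 TPM, Cd34 at 12.7 and Pdgfrb at 10.7, followed by Meox1 (3.71), Pi16 (3.54), Islr (3.10), Cd248 (2.35), Pdgfra (1.81), Prnd (1.57) and Dpp4 (0.333). In male WT mice Ly6a lay above every other marker in every mouse, and Cd34 and Pdgfrb overlapped each other but lay above the remaining markers. The ranges of Meox1, Islr, Pi16, Cd248 and Pdgfra ran into each other from one rank to the next, and Dpp4 was below all others. In male KO mice Pi16 and Prnd had moved up the order, and Pi16, at 5.68 TPM, had the fourth highest mean. The stem of the order, Ly6a above Cd34 and Pdgfrb, and these above the rest, held in all 4 groups.

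**Figure D1:**
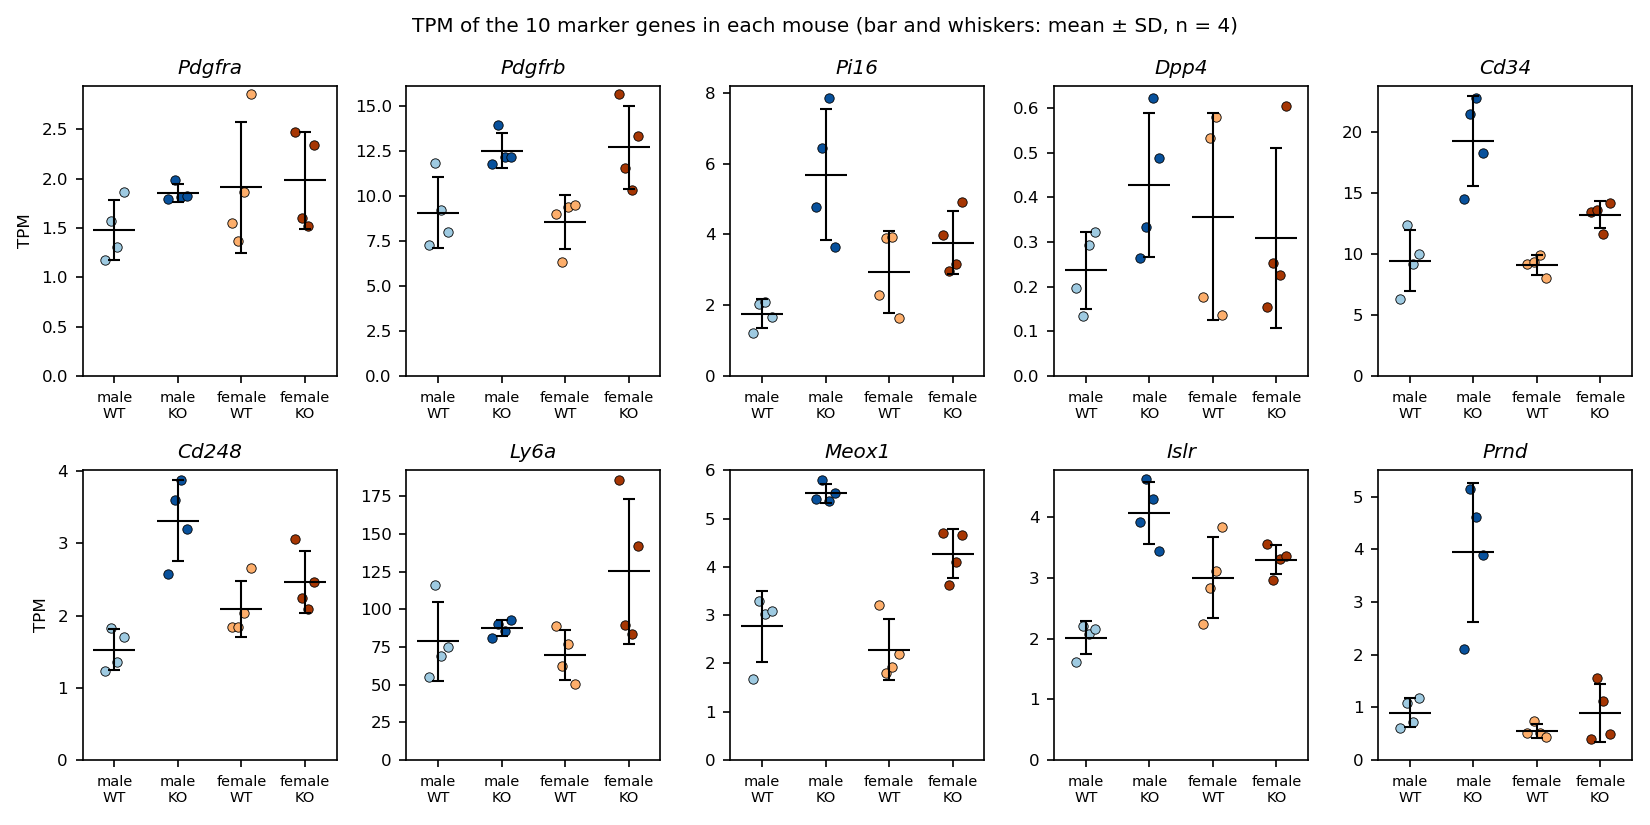
TPM (vertical axis, linear from 0, a separate scale in each panel) of the 10 markers in each of 16 mice, with 4 points per group and the group mean ± SD in black. In males the KO points of Pi16, Cd34, Cd248, Meox1, Islr and Prnd all lie above the WT points, and in females those of Pdgfrb, Cd34 and Meox1 do.

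The interstitial progenitor markers came first. Pi16 encodes peptidase inhibitor 16, a secreted protein of adventitial and interstitial fibroblasts. It was at 1.203, 2.04, 2.097 and 1.68 TPM in male WT mice and at 4.78, 6.46, 7.86 and 3.64 TPM in male KO mice, so every KO mouse lay above every WT mouse. The means were 1.75 ± 0.411 and 5.68 ± 1.85 TPM (SD, n = 4), a log2 difference of 1.42 ± 0.23 (limma SE). In females the WT mice lay at 2.29, 3.90, 3.94 and 1.64 TPM and the KO mice at 3.98, 2.98, 3.18 and 4.92 TPM, and the groups overlapped, with a log2 difference of 0.35 ± 0.26. Female WT mice 2 and 3 lay inside the KO range and mice 1 and 4 below it.

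Dpp4, the cell-surface peptidase CD26, marks the same population but was scarcely detected. Its values were 0.197, 0.135, 0.295 and 0.322 TPM in male WT and 0.263, 0.333, 0.624 and 0.489 TPM in male KO mice, and 0.177, 0.534, 0.580 and 0.136 TPM in female WT and 0.154, 0.252, 0.227 and 0.604 TPM in female KO mice. The groups overlapped in both sexes. With a mean under 1 TPM Dpp4 fell below the minimum of every fit, so it has no fold change here.

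Cd34 encodes a sialomucin of progenitor and endothelial surfaces. It was at 6.27, 12.4, 9.16 and 9.95 TPM in male WT and 14.5, 21.4, 22.7 and 18.3 TPM in male KO mice, and the lowest KO value exceeded the highest WT value. Means were 9.44 ± 2.53 and 19.2 ± 3.69 TPM (SD, n = 4), a log2 difference of 1.005 ± 0.21. Female WT mice had 9.17, 9.34, 9.92 and 7.99 TPM and female KO mice 13.5, 13.6, 11.7 and 14.2 TPM, again without overlap, and the log2 difference was 0.51 ± 0.11.

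Ly6a encodes Sca-1, the lipid-anchored surface protein used to sort mouse progenitors, and belongs to a family of similar neighbouring genes among which short reads may be shared. Male WT mice had 55.2, 116, 69.0 and 74.7 TPM and male KO mice 80.7, 90.2, 85.9 and 92.9 TPM, and all 4 KO values lay inside the WT range (log2 difference 0.20 ± 0.20). The male value was 0.0507 without WT mouse 1 and 0.41 without WT mouse 2. Female WT mice had 88.9, 62.1, 77.4 and 50.8 TPM and female KO mice 186, 89.5, 83.8 and 142 TPM. There 3 of 4 KO mice lay above all WT mice, with KO mice 1 and 4 far above the others, and the log2 difference was 0.79 ± 0.29. The difference between the sexes was itself 0.59 ± 0.37 on the log2 scale and did not pass the adjusted threshold of the interaction test given further on.

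The PDGF receptors, which pass growth factor signals to mesenchymal cells, come next. Pdgfra, the receptor by which adipose progenitors are most often identified, was at 1.17, 1.57, 1.31 and 1.87 TPM in male WT and 1.79, 1.99, 1.82 and 1.82 TPM in male KO mice (log2 difference 0.26 ± 0.15). The KO values were tightly grouped, 3 inside the WT range and that of mouse 2 above it. In females it was at 1.55, 1.36, 1.86 and 2.85 TPM in WT and 2.47, 1.60, 1.52 and 2.34 TPM in KO mice, a log2 difference of 0.06 ± 0.23, whose sign turned when the libraries were rescaled by median-of-ratios factors (-0.02). The highest Pdgfra value of all was in female WT mouse 4, the library that stood apart, where several minor isoforms that most other libraries list at 0 were above 0.

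Pdgfrb, the receptor shared with pericytes, was at 7.28, 11.8, 9.21 and 7.98 TPM in male WT and 11.8, 13.9, 12.1 and 12.2 TPM in male KO mice. Only male WT mouse 2 reached the KO range, just above the lowest KO mouse, and the log2 difference was 0.46 ± 0.14. In females the WT mice had 9.02, 6.35, 9.38 and 9.52 TPM and the KO mice 15.6, 11.5, 10.3 and 13.3 TPM, without overlap, and a log2 difference of 0.54 ± 0.17. The female-minus-male value for Pdgfrb was 0.08 ± 0.23.

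Cd248 and Islr, both surface proteins of stromal fibroblasts, form a pair. Cd248 (endosialin) was at 1.23, 1.82, 1.36 and 1.70 TPM in male WT and 2.58, 3.60, 3.89 and 3.20 TPM in male KO mice, without overlap, and the log2 difference was 0.91 ± 0.16. In females it was at 1.84, 1.84, 2.03 and 2.66 TPM in WT and 3.06, 2.24, 2.09 and 2.46 TPM in KO mice, which overlapped (log2 difference 0.19 ± 0.16). Islr, which encodes the lipid-anchored protein meflin, was at 1.61, 2.20, 2.08 and 2.16 TPM in male WT and 3.92, 4.63, 4.30 and 3.44 TPM in male KO mice, again without overlap (log2 difference 0.86 ± 0.13). Female WT mice had 2.24, 2.84, 3.11 and 3.84 TPM and female KO mice 3.55, 2.97, 3.31 and 3.37 TPM, all 4 of the latter inside the WT range (log2 difference 0.13 ± 0.16).

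Meox1, a homeobox transcription factor of mesoderm, was even among male KO mice. It was at 1.67, 3.29, 3.03 and 3.08 TPM in male WT and 5.40, 5.80, 5.36 and 5.53 TPM in male KO mice, a log2 difference of 0.92 ± 0.17, and the groups were apart. Female WT mice had 3.22, 1.81, 1.93 and 2.19 TPM and female KO mice 4.71, 3.63, 4.11 and 4.66 TPM, also apart, with a log2 difference of 0.80 ± 0.17. Meox1 and Cd34 were the 2 markers that lay higher in KO mice without overlap in both sexes, a pattern of 0.746% of the 11795 genes tested in both.

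Prnd encodes doppel, a prion-like protein with a lipid anchor. Male WT mice had 0.614, 1.084, 0.720 and 1.17 TPM and male KO mice 2.11, 5.14, 4.61 and 3.89 TPM, and the log2 difference of 1.63 ± 0.26 was the largest of the 9 markers fitted in males. Its mean in male WT mice, 0.897 ± 0.271 TPM, was under the minimum, so Prnd entered the male fit only through the KO mice, where it was high. In females it was at 0.517, 0.733, 0.512 and 0.445 TPM in WT and 0.394, 1.56, 1.12 and 0.486 TPM in KO mice, below the minimum, and 2 KO mice lay above and 2 within or below the WT range.

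**Figure D2:**
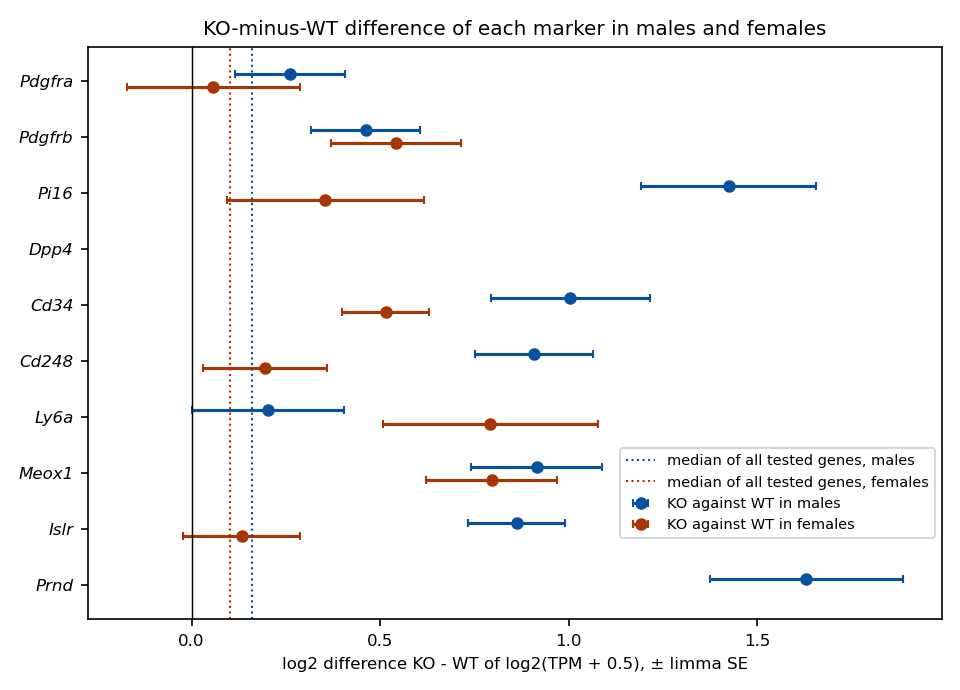
KO-minus-WT difference of each marker on the log2(TPM + 0.5) scale (horizontal axis) with its limma standard error, in males (blue) and females (dark orange), and the median of all tested genes as dotted lines. Prnd, Pi16, Cd34, Meox1, Cd248 and Islr lie between 0.86 and 1.63 in males, Ly6a and Meox1 lie near 0.8 in females, and Dpp4 and female Prnd have no point because they were below the minimum.

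Across the 9 markers with a mean of at least 1 TPM in males, all 9 differences were above 0, from 0.20 for Ly6a to 1.63 for Prnd, with a median of 0.91. The median over all 12177 genes tested was 0.16, so most tested genes also lay above 0. Of the 9, 6 (Pi16, Cd34, Cd248, Meox1, Islr and Prnd) were higher in every KO mouse than in every WT mouse, beside 9.54% of all tested genes, and none was lower without overlap, beside 0.673%. None of the 9 passed an adjusted p of 0.05 in the limma fit of the 8 male libraries with Benjamini-Hochberg adjustment (lowest adjusted p 0.121, for Islr), beside 1 gene or 0.00821% of all tested, and 7 had an unadjusted p under 0.05, beside 2281 genes (18.7%). In a fit of all 16 libraries, which share 1 estimate of the spread, the 6 markers that did not overlap passed (adjusted p 0.0298 to 0.0409), beside 38 of 12210 genes (0.311%). Without male KO mouse 1, Prnd alone of the markers passed (log2 difference 1.87 ± 0.20, adjusted p 0.0303 by limma), beside 5 of 12158 genes. Prnd, which is among the 9 and the 6 above, reached the minimum of these fits only through the male KO mice, where it was high. Its place in the counts and its adjusted p are therefore no support. As the markers were chosen with these values known, these counts describe them and are no test.

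In females the 8 markers with a mean of at least 1 TPM had differences from 0.06 to 0.80, with a median of 0.43 against 0.10 over all 12141 genes tested. Of the 8, 3 (Pdgfrb, Cd34 and Meox1) were higher without overlap, beside 4.9% of all tested genes, and none was lower without overlap, beside 3.19%. None passed the adjusted threshold (lowest adjusted p 0.231 by limma), nor did any other gene (0%), while 4 of the 8 and 2077 of all genes had an unadjusted p under 0.05. Without female WT mouse 4, the library that stood apart, the median of the 8 was 0.37 and the single differences ran from 0.15 for Pi16 to 0.79 for Meox1, with 0.23 for Pdgfra. The plot of the markers among all tested genes places each difference in the distribution of its sex.

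**Figure D3:**
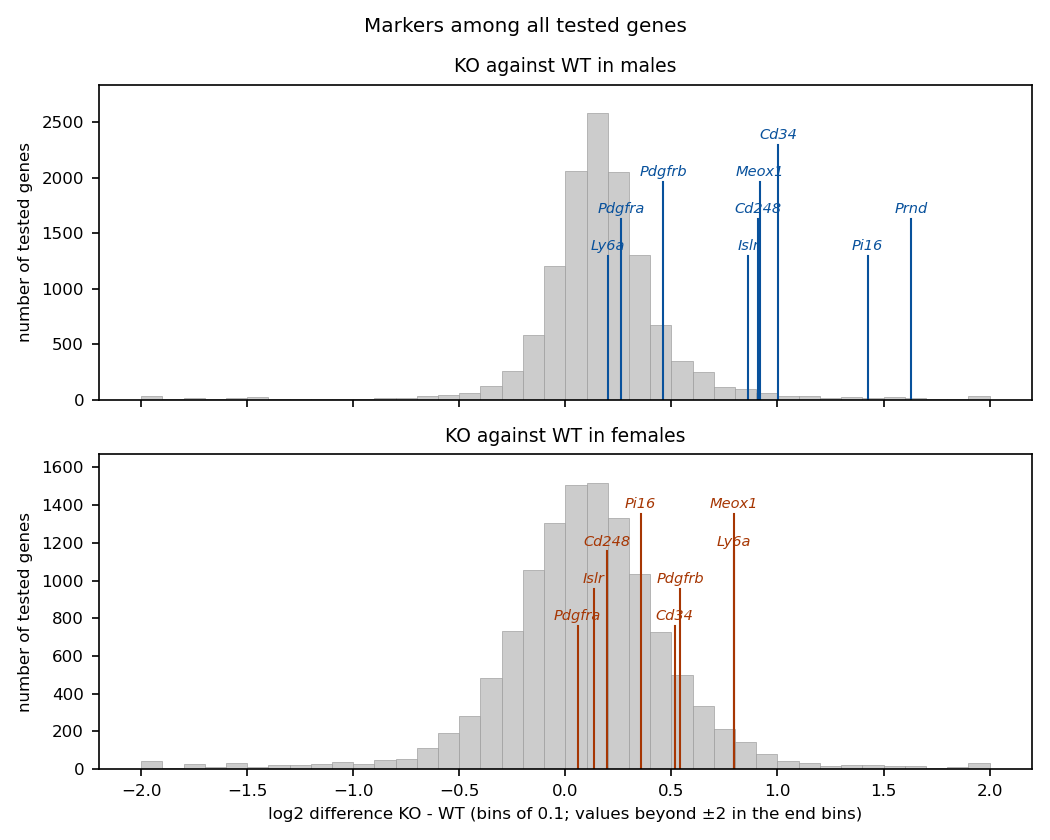
Number of tested genes (vertical axis) by KO-minus-WT log2 difference in bins of 0.1 (horizontal axis), for males above and females below, with each marker at its own difference; line heights only separate the names. In males 6 markers stand at 0.86 or more in the right tail, where few of the 12177 genes lie, and in females 2 markers stand near 0.8.

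An interaction term in a fit of the 16 libraries compared the KO difference of females with that of males. On the log2 scale the female difference lay below the male one, with a female-minus-male value of -1.31 ± 0.41 for Prnd, -1.07 ± 0.37 for Pi16, -0.73 ± 0.20 for Islr and -0.72 ± 0.22 for Cd248. The value was -0.49 ± 0.25 for Cd34, -0.20 ± 0.27 for Pdgfra and -0.12 ± 0.25 for Meox1, and above 0 for Ly6a and Pdgfrb. None of the 9 markers passed the adjusted threshold in limma (lowest adjusted p 0.215), nor did any gene (0% of 12210), while 4 of the 9 and 1737 genes had an unadjusted p under 0.05. A difference between the sexes in the KO values of these markers was not shown.

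A comparison of WT mice gave the levels of each sex without KO. Of 8 markers tested in female against male WT mice, 4 were higher and 4 lower in females, with a median log2 difference of 0.12 against -0.05 over all genes. This median was 0.00840 without male WT mouse 1 and 0.21 without female WT mouse 2. Pi16 was higher by 0.56 ± 0.27, Islr by 0.47 ± 0.17 and Cd248 by 0.35 ± 0.18, and Meox1 differed by -0.22 ± 0.23. Cd248 and Islr were higher in every female WT mouse than in every male WT mouse, beside 0.722% of 12042 genes, and no marker was lower without overlap, beside 1.2%. Islr overlapped, however, after rescaling by median-of-ratios factors or without mitochondrial transcripts. No marker passed the adjusted threshold by limma (lowest adjusted p 0.9999), beside 8 genes (0.0664%), and 1 marker and 413 genes had an unadjusted p under 0.05.

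TPM depend on everything else in a library, so the scaling was varied. Without mitochondrial transcripts the median difference of the markers in males was 0.88 and with median-of-ratios factors 0.77, where the median of all genes was 0.07 and 0.01. All 9 differences stayed above 0 in males under both, and Pdgfrb joined the 6 markers without overlap, beside 6.94% and 5.01% of all tested genes. Islr alone passed the adjusted threshold without mitochondrial transcripts (log2 difference 0.84 ± 0.09, adjusted p 0.0413 by limma), beside 12 genes. In females the median was 0.36 over 9 markers without mitochondrial transcripts, where Prnd was also tested, and 0.35 over 8 with median-of-ratios factors. Ly6a joined Pdgfrb, Cd34 and Meox1 among those without overlap under both, beside 5.98% and 5.90% of all tested genes.

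The library names carry a prefix, whose meaning the labels do not give. In males, where KO mice had prefixes 10 and 9 and WT mice 5 and 9, prefix 9 held 3 KO and 2 WT libraries. Within it all 9 tested markers were higher in KO mice by the group means, with log2 differences of 0.20 to 1.81 and a median of 0.81. In females prefix 10 held 1 KO and 1 WT library, where 8 of 9 markers were higher in KO (median 0.57). Prefix 8b held 1 KO and 3 WT libraries, where 7 of 9 were higher (median 0.30), Pdgfra and Cd248 being lower. The 9 in females include Prnd, which was below the minimum there. Dpp4, left out of these counts, differed by 0.27 in males of prefix 9, -0.05 in females of prefix 10 and -0.30 in those of 8b. Female KO mice 2 and 4 had prefixes 5 and 9, which no female WT mouse had, so they are outside this comparison.

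Several markers are spread over more than 1 annotated transcript. Cd248 and Meox1 each came from a single transcript, and 98.6% of Pdgfrb and 86.2% of Pdgfra from 1 protein-coding form. Of Pi16, 40.9% of the summed TPM came from a protein-coding transcript and 40.6% from 1 annotated as a retained intron. Cd34 was divided between 2 protein-coding forms with 55.6 and 42.2%. Prnd moved between its 4 protein-coding forms from mouse to mouse. The form with the largest share, 61.0%, ranged from 1.24 to 3.19 TPM in male KO mice and from 0.208 to 1.084 TPM in male WT mice, so the separation seen for the gene was also present in that form.

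How the markers varied from mouse to mouse was described by the Pearson correlation over the 16 libraries after the mean of each group was removed, a description without a test since all points share the tissue and its composition. Of the 36 pairs of the 9 markers with a mean of at least 1 TPM, 31 had a positive correlation, with a median of 0.35 and a range of -0.30 to 0.78. Pdgfra, Cd248 and Islr varied together (0.70 to 0.78), as did Pdgfrb with Ly6a (0.72) and Ly6a with Meox1 (0.65). Among female WT mice Pdgfra, Cd248 and Islr were each highest in mouse 4, the library that stood apart. Single pairs were not recomputed without it. Pi16 went with Cd34 (0.63) and with the low Dpp4 (0.64), but not with Pdgfra (-0.08). Prnd stood apart from all but Cd34 (0.49), with values of -0.30 to 0.13 for the others with a mean of at least 1 TPM. The median depended on the scaling, being 0.12 with median-of-ratios factors and 0.23 without mitochondrial transcripts. It was 0.19 without male WT mouse 1 and 0.51 without female WT mouse 1 or 4.

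**Figure D4:**
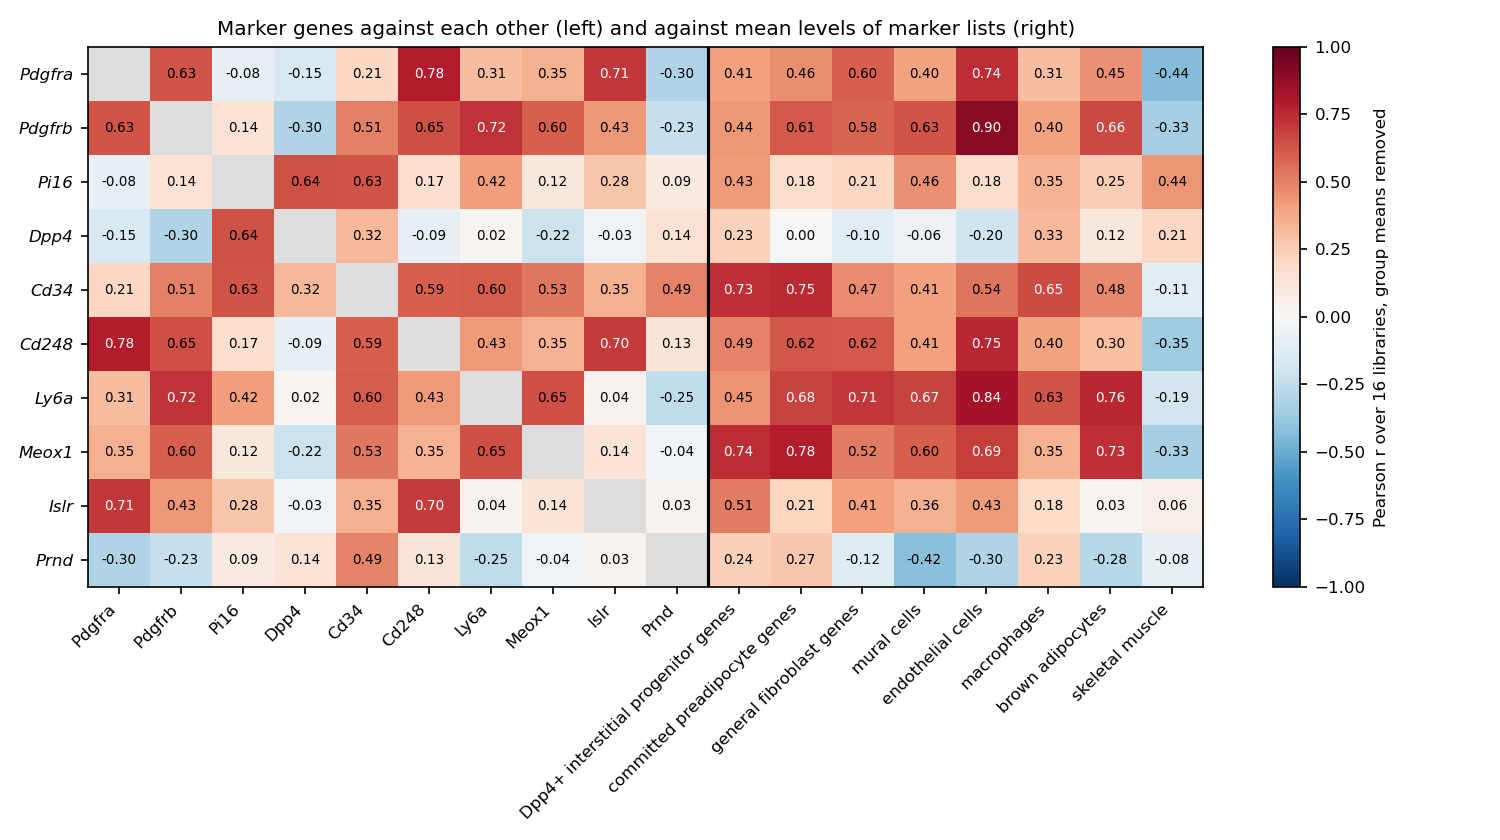
Pearson correlation over 16 libraries after removal of group means, for each pair of markers (left of the line) and for each marker with the mean log2 level of 8 marker lists (right). Pdgfrb and Ly6a are closest to the endothelial list (0.90 and 0.84), followed by Cd248 (0.75), Pdgfra (0.74) and Meox1 (0.69). Cd34 (0.54) and Islr (0.43) lie lower, and Pi16 (0.18), Dpp4 (-0.20) and Prnd (-0.30) are not close to it. Meox1 and Cd34 are higher with the committed preadipocyte list (0.78 and 0.75) and the Dpp4+ list (0.74 and 0.73) than with the endothelial one. Pdgfra, Pdgfrb, Cd248 and Ly6a are lower with each stromal list than with the endothelial one. Ly6a, Meox1 and Pdgfrb are also high with the brown adipocyte list (0.76, 0.73 and 0.66). The list correlations were not recomputed under another scaling.

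Outside the 10 markers, the genes most like their mean level over the 16 libraries, by the same measure over 12201 genes, included Fstl1 (0.92), Cd93, Cxcl16, Sh3bp4, Cyp4f16, Clic1, Fam129b, Ucp2 and Dctn5 (0.89). Fstl1 encodes a secreted glycoprotein of mesenchymal cells, Cd93 an endothelial surface protein and Ucp2 a mitochondrial carrier. In male KO mice Fstl1 was higher by 0.85 ± 0.18 on the log2 scale (adjusted p 0.145), and in female KO mice by 0.26 ± 0.12 (adjusted p 0.310), both by limma and neither past the threshold.

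Other stromal genes were read from 4 lists. Of 15 genes of the Dpp4+ interstitial progenitors 6 had a mean of at least 1 TPM in males. All 6 differences lay above 0, 5 of them above the median of all tested genes (0.16), and 1 gene passed the adjusted threshold. This was Mfap5, a microfibril-associated protein, at 2.21, 2.37, 2.55 and 2.91 TPM in male WT and 6.69, 10.1, 9.92 and 8.30 TPM in male KO mice. The lowest male KO mouse had more Mfap5 than the highest male WT mouse, and the log2 difference was 1.61 ± 0.14 (adjusted p 0.0196, limma with Benjamini-Hochberg adjustment), the single gene past the threshold of all tested in males. It kept this call in 10 of 18 alternative fits, with adjusted p from 0.00483 to 0.141, and lost it without any 1 of male WT mice 1, 2 or 3 (adjusted p 0.141, 0.0679 and 0.0645) or male KO mice 2, 3 or 4 (0.0590, 0.127 and 0.0644), without a TPM minimum (0.0693) and with a replicate block (0.0573). In females Mfap5 had 3.72, 5.43, 4.83 and 3.63 TPM in WT and 6.89, 2.91, 7.26 and 7.24 TPM in KO mice, which overlapped (log2 difference 0.36 ± 0.27, adjusted p 0.481 by limma).

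The other interstitial genes with the smallest p in males did not pass. Anxa3, an annexin, differed by 0.47 ± 0.19, Pcsk6, a proprotein convertase, by 0.28 ± 0.15 and Axin2, a Wnt target, by 0.33 ± 0.21 on the log2 scale in males, and by 0.62, -0.03 and -0.29 in females. These 3 were at 7.17 to 20.7 TPM in group means, higher than Pi16 or Dpp4. The median over the list was 0.31 in males and 0.27 in females.

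Of 12 committed preadipocyte genes 10 were tested in both sexes and none passed in either. All 10 lay above 0 in males (median 0.44) and 7 in females (median 0.34). Most tested genes also lay above 0, with all-gene medians of 0.16 in males and 0.10 in females. Above these medians lay 9 of the 10 in males and 7 in females. Cd9, a tetraspanin, had a log2 difference of 0.78 ± 0.19 in males and 0.68 ± 0.29 in females, and Col15a1, a basement membrane collagen, 0.67 ± 0.22 and 0.24 ± 0.21. Fmo2 had 0.33 and 0.54, and Dlk1, the preadipocyte factor Pref-1, 0.56 and 0.44.

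Of 20 general fibroblast genes 17 were tested in males, of which 15 lay above 0 and also above the median of all tested genes (0.16). Of these, 8 were without overlap (beside 9.54% of all genes), and none passed the threshold. The fibrillar collagens led the list in males, with log2 differences of 1.30 ± 0.22 for Col1a1, 1.01 ± 0.19 for Col1a2 and 0.97 ± 0.20 for Col3a1 (adjusted p 0.123, 0.135 and 0.146 by limma). Thy1, a fibroblast surface protein, had 0.90 ± 0.23. In females the same genes had 0.14 ± 0.28, 0.27 ± 0.21, 0.22 ± 0.24 and 0.54 ± 0.19, and none of the 16 tested was without overlap. The list's median was 0.47 in males and 0.26 in females.

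The ligands of the 2 PDGF receptors were all expressed. Pdgfb, made largely by endothelial cells, was at 7.93, 18.4, 13.8 and 15.2 TPM in male WT and 22.5, 20.97, 20.9 and 21.7 TPM in male KO mice, which did not overlap (log2 difference 0.68 ± 0.22, adjusted p 0.205 by limma). In females it was at 12.9, 8.54, 12.3 and 21.7 TPM in WT and 34.1, 16.6, 18.2 and 32.1 TPM in KO mice, which did (log2 difference 0.85 ± 0.32). Pdgfd was lower in every female KO mouse than in every female WT mouse (-0.62 ± 0.19, adjusted p 0.231 by limma), beside 3.19% of all genes, and differed by 0.30 ± 0.16 in males. Pdgfa differed by 0.23 in males and 0.29 in females, and Pdgfc by 0.22 and -0.25. No ligand passed the threshold in either sex.

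**Figure D5:**
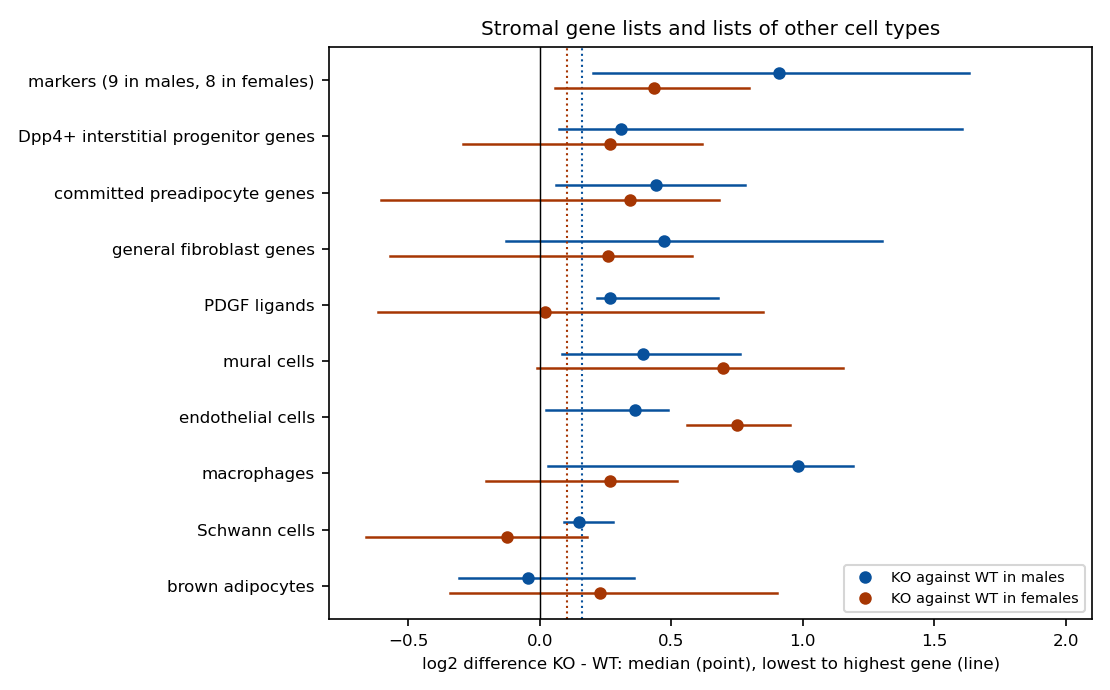
KO-minus-WT log2 difference (horizontal axis) of the markers, 4 other stromal lists and 5 lists of other cell types, in males (blue) and females (dark orange), as the median of the tested genes (point) and the lowest to highest gene (line), with the median of all tested genes dotted. In males the marker median is 0.91 and the macrophage median 0.98. In females the endothelial (0.75) and mural (0.70) medians are above that of the markers (0.43). The markers were chosen with these values known, so their place among the lists is no result. With a mean of at least 5 TPM, which leaves fewer genes in each, the male medians were 0.46 for the markers and 0.68 for general fibroblast genes.

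Markers of other cell types also differed in level between the groups. All 12 endothelial genes were tested and none was at 0 in all libraries. Their summed level ran from 287 to 564 TPM in male WT, 453 to 530 TPM in male KO, 263 to 406 TPM in female WT and 439 to 878 TPM in female KO mice. All 12 lay above 0 in KO mice of both sexes (median 0.36 in males and 0.75 in females), and in females 7 did so without overlap, beside 4.9% of all genes. Above the median of all tested genes lay 10 of the 12 in males and 12 in females. The female KO mice with the highest endothelial sums, 1 and 4, were also those with the highest Ly6a, Pdgfrb and Pdgfra of their group. The part of endothelial cells in the Ly6a, Pdgfrb and Cd34 values was not tested.

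The 10 mural genes, none at 0 in all libraries, summed to 167 to 247 TPM in male WT, 211 to 298 TPM in male KO, 166 to 191 TPM in female WT and 205 to 334 TPM in female KO mice, and their median difference was 0.39 in males and 0.70 in females. The 10 macrophage genes, none at 0 in all libraries, summed to 47.1 to 91.3 TPM in male WT and 118 to 172 TPM in male KO mice, which did not overlap, and to 55.5 to 121 TPM in female WT and 77.9 to 112 TPM in female KO mice, which did. Of the 9 macrophage genes tested in males 6 were higher without overlap, beside 9.54% of all genes. The male differences of Pi16, Cd34, Cd248, Meox1, Islr and Prnd went with these higher macrophage sums, and the part of macrophages in them was not tested. The 10 lymphocyte and 6 mesothelial genes were all below a mean of 1 TPM, with sums of at most 7.77 and 7.65 TPM. Skeletal muscle genes, of which all 9 were tested and none was at 0 in all libraries, summed to 114 to 2034 TPM in male WT, 98.4 to 4443 TPM in male KO, 80.5 to 1366 TPM in female WT and 91.1 to 3835 TPM in female KO mice. All 9 lay above 0, and above the median of all tested genes, in KO mice of both sexes (median 0.55 in males and 1.09 in females). The summed ranges overlapped widely, however, and the part of muscle in the marker values was not tested. The median difference was -0.05 in males and 0.23 in females for the 11 brown adipocyte genes. For Schwann cells it was 0.15 over 3 genes tested in males and -0.12 over 4 in females. For white adipocytes 3 of 5 genes were tested, with medians of -0.14 in males and -0.77 in females. These went both ways, from -0.61 to 1.03 in males and from -1.98 to 0.88 in females. Lep averaged 54.9 TPM in male WT and 101 TPM in male KO mice, and 37.5 and 12.4 TPM in female WT and KO mice.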

How the data were processed

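The authors made stranded mRNA libraries of BAT, sequenced single-end reads and deposited TPM per transcript, which kallisto 0.46.2 estimated against GRCm39 per the submitters' processing notes. TPM keep no read depth, so no counting interval is given, and precision rests on the spread between 4 mice per group. The labels give sex, genotype and replicate number. A limma p weighs a group difference against the spread between these libraries, and the permutation p ranks it among all relabellings of them.

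Of 137438 transcript identifiers 135051 matched GENCODE M21 without version (2387 did not), and TPM were summed per symbol. Log2(TPM + 0.5) of genes with a mean of at least 1 TPM in the comparison was fitted with limma 3.58.1 (eBayes with trend, R 4.3.3), within each sex, for WT females against WT males and for the interaction, with Benjamini-Hochberg adjustment over all genes and a threshold of 0.05. Gdf15 was compared by an exact two-sided permutation test. Tables were handled in Python 3.11.15 with pandas 2.3.3. Groups did not overlap where every value of one lay beyond every value of the other. The pipeline was tested on simulated data. The markers and lists were chosen with earlier results of these data known. From each list, genes past the threshold and up to 4 with the smallest male p, all PDGF ligands and the 10 genes most like the markers were named, of which 1 is not reported here. Alternatives varied the pseudocount, the TPM minimum, the scaling (median-of-ratios factors, or TPM rescaled without mitochondrial transcripts), the trend, the covariates (replicate number, library name prefix) and the libraries in the fit, including each left out in turn.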

Additional observations from a re-analysis of the deposited data

Results flagged for a closer look

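In 3 of the 40 sets of 4 mice (10 markers in 4 groups) 1 mouse lay far from the others: its gap to its nearest neighbour exceeded Dixon's 95% critical share of the group's range, which chance gives in about 1 set of 20. Male KO mouse 2 had 1.99 TPM of Pdgfra, while the other 3 had 1.79 to 1.82 TPM. Female WT mouse 2 had 6.35 TPM of Pdgfrb, below the 9.02 to 9.52 TPM of the other 3. Male WT mouse 1 had 1.67 TPM of Meox1, below the 3.03 to 3.29 TPM of the other 3. Without that mouse the male log2 difference of Meox1 was 0.73. Why these mice stood apart was not tested.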

How the results depend on the processing

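Beside the values as reported, 319 summary values under other settings stayed within the allowed change and 33 moved. Counts were compared by a set factor, medians and the correlation by a set spread, and Gdf15 by its direction and its side of 0.05. All 226 values of single markers moved by less than the spread between mice of a group, a rule that looked at neither sign nor threshold. The female Pdgfra difference, close to 0, changed sign with median-of-ratios scaling (-0.02) and without any 1 of female WT mice 1 and 2 or KO mice 1 and 4 (lowest -0.0530). In males 1 gene passed the threshold, against 2 with a pseudocount of 0.1, 0 without a TPM minimum, 3 with median-of-ratios scaling, 12 without mitochondrial transcripts, 0 with the replicate block, 6 with the library name prefix as covariate and 38 with all 16 libraries in 1 fit. Of the markers 0 passed in males, against 1 without mitochondrial transcripts and 6 in the fit of 16. The Dpp4+ list lost its 1 call (0 genes) without a minimum and with the block, and the general fibroblast list gained 1 without mitochondrial transcripts. With a mean of at least 5 TPM only Ly6a, Cd34 and Pdgfrb of the markers were left, and the other lists also lost genes. The male medians were then 0.46 for the markers, 0.68 for general fibroblast genes and 0.49 for PDGF ligands. The ligand median was 0.115 with median-of-ratios scaling, and that of the Dpp4+ list 0.0936 with the prefix.

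In females 0 genes passed, against 1 with the replicate block, 8 with the prefix and 5 with all 16 libraries. The Dpp4+ list median was 0.0689 without a minimum and 0.18 with median-of-ratios scaling, the committed preadipocyte median 0.22 without a minimum and 0.21 without mitochondrial transcripts, and the ligand median 0.12 at 5 TPM. The interaction had 1 call without the trend. In female against male WT mice 3 genes passed at 5 TPM instead of 8. The marker median there was 0.12 over 8 markers and -0.0729 at 5 TPM, over Ly6a, Cd34 and Pdgfrb alone. It was -0.10 without mitochondrial transcripts, over 9 markers with Prnd added, so these medians do not cover the same genes. In this comparison 1 marker instead of 2 was without overlap with median-of-ratios scaling (beside 1.67% of all genes) and without mitochondrial transcripts (0.674%). The median correlation between markers was 0.12 and 0.23 under these 2 scalings.

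Leaving out 1 library at a time gave 0 to 5 calls in males, 0 to 9 in females, 0 to 3 for the interaction and 5 to 11 between WT sexes. It gave 0 to 1 marker and 0 to 1 Dpp4+ list gene past the threshold in males, male general fibroblast medians of 0.40 to 0.69, female committed preadipocyte medians of 0.16 to 0.42, female ligand medians of -0.0730 to 0.11, and median correlations of 0.19 to 0.51. The sign of the female ligand median, close to 0, turned without any 1 of female WT mice 1 and 4 or KO mice 2 and 3, and under both scalings. The marker median between WT sexes ran from 0.00840 to 0.21, the male Ly6a difference from 0.0507 to 0.41, and the female differences of Pi16, Cd248 and Islr from 0.15 to 0.50, 0.10 to 0.29 and 0.0204 to 0.24. The male Gdf15 difference was -1.71 to -0.94 and the female one -0.54 to -0.36 (highest exact permutation p 0.0571 and 0.0857).

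Whether replicate numbers pair the mice was not tested. Deviations of same-numbered mice correlated from -0.09 to 0.35 in males and from -0.11 to 0.15 in females. Those of differently numbered mice correlated from -0.30 to 0.28 in males and from -0.31 to 0.43 in females. In males the highest value of all was that of the mice numbered 4. The prefix could not be fitted for WT females against WT males and was not run there. The cause of these changes was not tested. TPM hold no counts, so depth limits low genes such as Dpp4 and Prnd by an amount that is unknown.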
